A study of Mus musculus with 8 samples.

Results

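The miR-183 cluster, which holds the hairpins of mmu-miR-183, mmu-miR-96 and mmu-miR-182, was followed through embryoid body (EB) differentiation of KH2-DGCR8 mouse embryonic stem cells, with and without doxycycline (Dox). Its members were taken by name: every listed mature miRNA with 1 of these 3 names, with either arm suffix, which gave 6 of the 1099 miRNAs in the table. KH2 cells carry the machinery for switching on a transgene with Dox, and KH2-DGCR8 is the genotype of all 8 libraries, those without Dox included. DGCR8 is the RNA-binding partner of the nuclease DROSHA in the Microprocessor, which cuts miRNA hairpins out of primary transcripts, and the series asked what DGCR8 overexpression does to miRNA production. Small RNA libraries were made at days 0, 1, 2 and 4, 1 with Dox and 1 without Dox on each day, so no condition was replicated. The labels do not say for how long Dox was given, or whether the libraries came from separate cultures.

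The 3 hairpins of the cluster are cut from 1 shared primary transcript and are best known from sensory organs, where photoreceptors and inner ear hair cells hold them at very high levels and loss of miR-96 function causes deafness. They are also found in pluripotent stem cells, in epithelia and in many carcinomas. The 5p arm of each hairpin is the arm usually loaded into Argonaute, where bases 2 to 8, the seed, pair with target mRNAs. The 3p arm is mostly discarded.

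The cluster lies on the minus strand of mouse chromosome 6, from 30165918 to 30169737 (GRCm38, the assembly also called mm10), and spans 3820 bases. Within it the order of transcription is Mir183 (30169668 to 30169737), Mir96 (30169446 to 30169551) and Mir182 (30165918 to 30165992). Only 116 bases part Mir183 from Mir96, while 3453 bases part Mir96 from Mir182. No other gene of the GENCODE annotation overlaps the span. It is intergenic, with the protein-coding Nrf1 ending 12459 bases away on the left, the long non-coding RNA gene Rncr4 starting 3155 bases away on the right on the other strand, and the protein-coding Ube2h beyond it.

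All 6 mature sequences were found in RefSeq (GRCm38.p6) and are shown so that the close likeness of the 5p seeds can be seen. Capitals mark the seed, bases 2 to 8.
miR-183-5p: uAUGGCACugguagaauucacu
miR-96-5p: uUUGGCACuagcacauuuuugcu
miR-182-5p: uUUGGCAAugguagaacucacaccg
miR-183-3p: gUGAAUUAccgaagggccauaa
miR-96-3p: cAAUCAUGuguagugccaauau
miR-182-3p: gUGGUUCUagacuugccaacu
Counting from 1 at the 5′ end, with the base of the first-named miRNA written first, miR-96-5p and miR-182-5p differ within the seed only by C8A, so they share bases 2 to 7. The miR-183-5p seed differs from that of miR-96-5p only by A2U, and from that of miR-182-5p by A2U and C8A. Outside the seed the closest pair is miR-183-5p and miR-182-5p, identical at 18 of 22 positions with only U17C and U22A beyond it. miR-96-5p is identical to miR-183-5p at 13 of 22 positions and to miR-182-5p at 12 of 23. No other mouse miRNA of the RefSeq table shares bases 2 to 8 with miR-183-5p or miR-182-5p. miR-1271-5p shares those of miR-96-5p, and it is not among the miRNAs listed in the deposited table.

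The hairpins themselves are shown because they are what the Microprocessor cuts, with both mature arms in capitals and the loop between them in lower case.
Mir183: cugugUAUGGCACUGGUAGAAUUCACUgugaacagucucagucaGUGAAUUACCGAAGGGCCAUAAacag
Mir96: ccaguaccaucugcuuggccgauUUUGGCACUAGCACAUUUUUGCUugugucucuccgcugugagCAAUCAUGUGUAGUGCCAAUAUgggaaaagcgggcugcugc
Mir182: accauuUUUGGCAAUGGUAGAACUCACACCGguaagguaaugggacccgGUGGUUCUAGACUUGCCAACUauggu
The arms are 17 bases apart in Mir183, 19 in Mir96 and 18 in Mir182, against a median of 16 over the 644 mouse hairpins of the table with both arms annotated. The letters UGU, a loop motif known to be bound by DGCR8, were searched on the transcribed strand between the arms, with 2 bases of each arm included. They occur in this window of Mir183 and Mir96 and not in that of Mir182, and 40.1% of the 644 hairpins hold them.

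Values are the deposited ones, read as RPM, meaning miRNA reads scaled to a common total per library and rounded. The libraries rest on 362483 to 541342 reads implied by the spacing of the low values, the smallest totals that fit. With these totals 3 reads correspond to 5.54 to 8.28 RPM. As a check of the label, the miR-290 cluster, the leading miRNA group of mouse stem cells, made up 46.1% of the day 0 library without Dox, and their share was lowest, at 16.3%, at day 4 without Dox. The miR-302 cluster, high in epiblast-like cells, was lowest at day 0 with Dox, at 0.0329% of the library, and highest at day 4 without Dox, at 3.58%. The fit used below and its threshold, an adjusted p of 0.05, are those of limma over 839 miRNAs. With 1 library per condition, the error in the day and Dox comparisons is how far the Dox log2 ratio varied between days. It does not hold the spread between replicate cultures. For 800 miRNAs this error was taken from miRNAs of like level and not from their own values.

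The cluster was among the most abundant miRNA groups in these cells. Its 6 members together held between 6.16% (95% exact binomial interval 6.08 to 6.24, counting error only) and 8.35% (8.28 to 8.43) of the miRNA reads of a library. Summed, they stood at 72247, 81197, 63136 and 61597 RPM at days 0, 1, 2 and 4 without Dox, and at 66469, 83500, 68053 and 77084 with Dox. Day 1 was the highest day in both series. The treatments differed in no constant direction, being higher with Dox on 3 days and lower on day 0. The mean difference was 0.09 on the log2 scale (SD 0.18 over 4 days), with p = 0.5 by an exact 2-sided permutation test that swaps treatments within days; the smallest p this test can give is 0.125.

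miR-182-5p, which together with miR-96-5p is known to target FoxO transcripts, was the leading member and 7th of the 1099 miRNAs by mean. Its 4 libraries without Dox held 41677, 41143, 30437 and 31199 RPM at days 0, 1, 2 and 4, and those with Dox 35504, 45170, 33522 and 42215. Without Dox its days 0 and 1 were high and days 2 and 4 low, whereas with Dox days 1 and 4 were high. The ranges of the 2 treatments overlapped. Day 4 over day 0 was 0.749 (95% counting interval 0.731 to 0.767) without Dox and 1.19 (1.16 to 1.22) with Dox. When the miR-290 cluster was left out of the library totals, these ratios were 0.482 and 0.918, both below 1.

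miR-183-5p ranked 9th by mean and was the steadiest member, with its highest library at 1.39 times its lowest. In day order it had 25934, 35928, 25842 and 26790 RPM in the libraries without Dox, against 25881, 34988, 29077 and 30096 in those with Dox. In both series day 1 stood above the 3 other days, by a ratio to day 0 of 1.39 (1.35 to 1.42) without Dox and 1.35 (1.32 to 1.39) with it. miR-96-5p, the member whose seed mutations cause hearing loss, was far lower and ranked 46th. Its values in day order were 4460, 3637, 6507 and 3490 RPM in untreated cells, and 4994, 2974, 5224 and 4640 in Dox-treated cells. Its highest day was day 2 in both series, and day 1 was its lowest with Dox and its second lowest without.

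**Figure D1:**
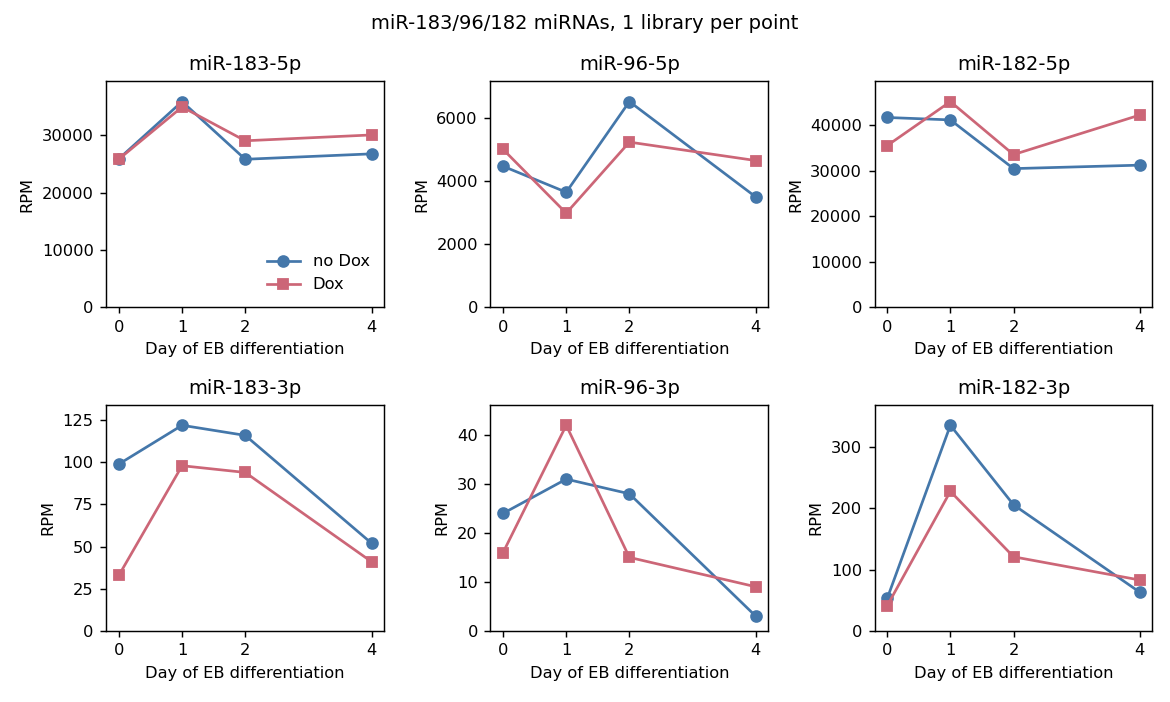
RPM of each cluster miRNA (vertical axes, starting at 0) against day of EB differentiation, for no Dox (circles) and Dox (squares), 1 library per point. In the top row the highest library is 1.39 times the lowest for miR-183-5p, 1.48 times for miR-182-5p and 2.19 times for miR-96-5p, whereas miR-182-3p in the bottom row peaks at day 1, at 336 and 228 RPM.

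The 3p arms were far scarcer than the 5p arms of the same hairpins. In day order miR-182-3p had 53, 336, 206 and 63 RPM in untreated cells and 41, 228, 121 and 83 in Dox-treated cells, which is between 15 and 151 implied reads. It was highest at day 1 and lowest at day 0 in both. miR-183-3p had 99, 122, 116 and 52 RPM in untreated and 33, 98, 94 and 41 in Dox-treated cells, with day 1 highest in both. miR-96-3p had 24, 31, 28 and 3 RPM in untreated and 16, 42, 15 and 9 in Dox-treated cells, so its day 4 values rest on 1 and 5 reads. Levels of different miRNAs are compared here as read numbers of molecules 21 to 25 bases long, with no correction for how well each is captured in a library.

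Differentiation was examined as each later day against day 0 over both treatments. One member changed: miR-182-3p rose by 2.54 on the log2(RPM + 1) scale at day 1 (SE 0.43, limma adjusted p = 1.63e-06) and was still higher by 1.74 at day 2 (SE 0.43, adjusted p = 9.32e-04). Among the 839 miRNAs tested at day 1 its p was the second lowest. Without limma's robust option its adjusted p was 0.0315 at day 1 and 0.0389 at day 2. With no filter on low values, when very few miRNAs were called at all, its adjusted p was 0.118 at day 1 and 0.138 at day 2. By treatment, day 1 over day 0 was 6.29 (95% counting interval 4.01 to 10.4) without Dox and 5.56 (3.24 to 10.3) with Dox. At day 4 the fitted change was 0.62 (SE 0.43, adjusted p = 0.327), with ratios to day 0 of 1.19 (0.634 to 2.24) without Dox and 2.03 (1.11 to 3.92) with Dox. The peak of the 3p arm was thus on the same day in both series. For miR-182-5p the fitted change was 0.16 (SE 0.22, adjusted p = 0.708) at day 1 and -0.27 (SE 0.22, adjusted p = 0.479) at day 2. With Dox it was highest at day 1 too, at 1.27 times day 0 (1.25 to 1.30), while without Dox that ratio was 0.987 (0.967 to 1.01).

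So 1 of 6 members was called at day 1, 1 of 6 at day 2 and 0 of 6 at day 4 by limma, where 8.1%, 17.3% and 25.7% of all tested miRNAs were called. One member in 6 is close to the background share of day 2, and at day 4 the count lies below it. At day 1 miR-183-5p had a log2 change of 0.45 (SE 0.22) and miR-96-5p one of -0.52 (SE 0.26), with adjusted p = 0.226 and adjusted p = 0.228 by limma. Without the 2 day 4 libraries miR-183-5p passed the threshold at day 1 (adjusted p = 0.045). At day 4 the 3 5p arms had changes of 0.13 for miR-183-5p, -0.23 for miR-96-5p and -0.08 for miR-182-5p, with SEs of 0.22 to 0.26. miR-96-3p had the largest fitted change at day 4, -1.71 (SE 0.71, adjusted p = 0.0629), on 1 and 5 reads, and it passed when only miRNAs averaging at least 10 RPM were tested (adjusted p = 0.0453).

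The 5p changes depend on the scaling. The median miRNA stood 0.56 higher at day 4 than at day 0 in RPM, while the miR-290 cluster held less than at day 0 in both treatments. With median-of-ratios scaling, which brought that median to 0, miR-96-5p fell by 0.84 (adjusted p = 0.0109), miR-182-5p fell by 0.69 (adjusted p = 0.0142) and miR-183-5p was at -0.48 (adjusted p = 0.128). When the miR-290 cluster was left out of the library totals, miR-96-5p fell by 0.73 (adjusted p = 0.0239) and miR-182-5p fell by 0.59 (adjusted p = 0.0425), all by limma. With each of these scalings 3 of 6 members were called at day 4, the third being miR-96-3p. With median-of-ratios scaling miR-96-5p also fell by 0.89 at day 1 (adjusted p = 0.0143) and miR-182-5p fell by 0.75 at day 2 (adjusted p = 0.0103). The rise of miR-182-3p remained past the threshold under both, by 2.18 and 2.48 at day 1. Of the calls over all miRNAs at day 4, 85.2% were higher as deposited, 60.3% with median-of-ratios scaling and 65.2% with the totals that leave out the miR-290 cluster. The same shares were 86.8%, 50.7% and 80% at day 1, and 88.3%, 49.5% and 77.3% at day 2.

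Because both arms of a hairpin are read in the same library, the share of the 3p arm does not depend on how libraries are scaled. In Mir182 the 3p arm made up 0.128%, 0.809%, 0.674% and 0.203% of the reads of both arms at days 0, 1, 2 and 4 without Dox, and 0.115%, 0.502%, 0.36% and 0.197% with Dox. The 95% exact binomial intervals at day 1 (0.686 to 0.949, and 0.416 to 0.601) lay above those at day 0 (0.0801 to 0.193, and 0.0646 to 0.19). In Mir183 the 3p share was 0.382%, 0.339%, 0.448% and 0.195% without Dox and 0.127%, 0.281%, 0.321% and 0.135% with Dox, with day 4 the lowest without Dox and days 0 and 4 both low with Dox. In Mir96 it ran from 0.079% at day 4 without Dox (0.002 to 0.439) to 1.41% at day 1 with Dox (0.885 to 2.13).

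To test the arms against each other, the log2 ratio of 3p to 5p was fitted with limma over the 146 hairpins whose arms both had a mean of at least 10 RPM, a test chosen after the values had been seen. The ratio of miR-182 rose by 2.38 at day 1 (SE 0.35, adjusted p = 0.0314) and by 2.01 at day 2 (SE 0.35, adjusted p = 0.0452), the 4th and 5th highest changes of the 146. miR-183 was at 0.47 and 0.77 (adjusted p = 0.535 and 0.275), and miR-96 at 1.37 and -0.24 (adjusted p = 0.209 and 0.768). Over all hairpins 5.48% were called at day 1, 3.42% at day 2 and 1.37% at day 4, with 1, 1 and 0 of the 3 cluster hairpins among them. The median hairpin moved by 0.01, -0.19 and 0.08. The calls for miR-182 were lost when days were removed: without the day 4 pair its adjusted p was 0.0788 at day 1 and 0.113 at day 2, and without the day 1 pair 0.0904 at day 2, while its fitted changes stayed at 2.38 and 2.01. Whether the cluster hairpins differ from one another in this ratio was not tested.

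**Figure D2:**
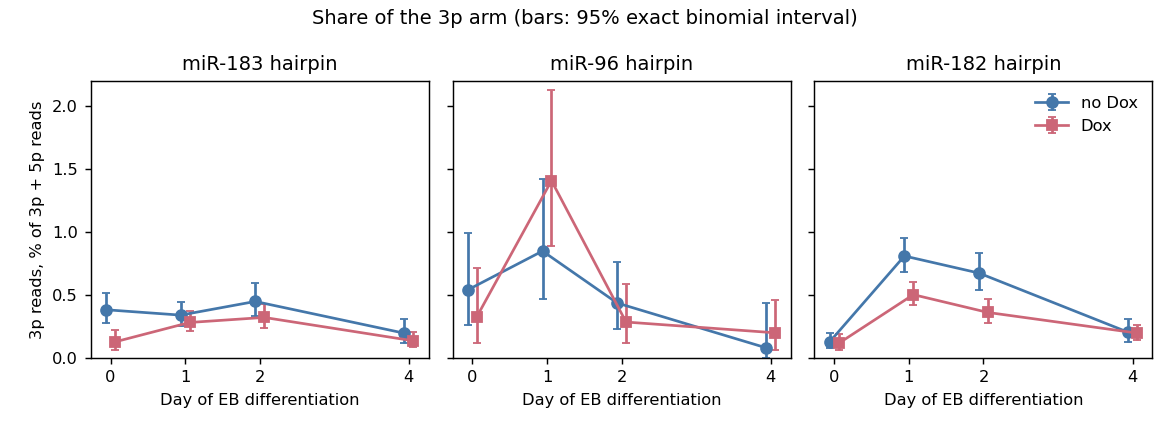
Share of reads from the 3p arm (vertical axis, percent of 3p plus 5p reads) against day for the 3 hairpins, for no Dox (circles) and Dox (squares), with 95% exact binomial intervals that cover counting error only. The miR-182 share is lowest at day 0 (0.128% and 0.115%) and highest at day 1 (0.809% and 0.502%) in both series.

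Some miRNAs outside the miR-183 cluster moved at day 1 too. Of the 12 listed miRNAs of fibroblasts, cells that can be carried over from feeder layers, 3 rose at day 1. Of all 839 miRNAs 59 were called higher there (8.1% called in either direction). Among the 3 was miR-145a-5p, by 1.79 (SE 0.47, limma adjusted p = 0.00348), which was highest at day 1 in both series. The other fibroblast miRNAs moved in both directions from day 0 to day 1. The median change over the 12 was 0.50, against 0.37 over all 839 miRNAs. miR-21a-3p rose by 1.67 (SE 0.53, limma adjusted p = 0.0243). It went from 12 to 42 RPM without Dox and from 19 to 60 with Dox. miR-21a-5p went from 8428 to 20472 RPM without Dox and from 14675 to 19676 with Dox. miR-22-3p went from 2148 to 2583 and from 2195 to 4316. miR-199a-5p went from 264 to 100 RPM without Dox and from 180 to 137 with Dox. miR-199a-3p went from 228 to 220 and from 191 to 176. miR-143-3p rose from 2191 to 2723 without Dox and fell from 1960 to 1599 with Dox. In the stem cell miR-290 cluster 1 of 14 tested members was called at day 1, and the median change was 0.03. This was the minor arm miR-290a-3p, which rose by 1.94 (SE 0.51, limma adjusted p = 0.00348). It went from 44 to 153 RPM without Dox and from 22 to 98 with Dox. The far more abundant miR-295-3p and miR-291a-3p were at -0.62 (SE 0.22) and -0.51 (SE 0.22). The summed level of the fibroblast list ran from 13904 to 40065 RPM without Dox and from 19693 to 58010 with Dox, and was highest at day 4 in both. Most of that sum was miR-21a-5p, which at day 4 held 36898 RPM in untreated and 53151 RPM in Dox-treated cells. The other 11 summed to 5476, 6307, 5254 and 3167 RPM in day order without Dox, and to 5018, 6845, 6032 and 4859 with Dox, highest at day 1 and lowest at day 4 in both. At day 4 the median change over the 12 was -0.32. Of the 12, 1 was at 0 in some library and 0 were at 0 in every library. Their part in the miR-182-3p peak was not tested.

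Dox was then compared with no Dox over the 4 days. No member was called, 0 of 6 by limma against 1.91% of all miRNAs, and none had an unadjusted p under 0.05. The fitted log2 change was 0.07 (SE 0.16) for miR-183-5p, -0.01 (SE 0.18) for miR-96-5p and 0.12 (SE 0.15) for miR-182-5p, with adjusted p = 0.945, adjusted p = 1 and adjusted p = 0.891. The median of the 6 members was 0.03, and so was that of all 839 miRNAs. Among the 3p arms miR-183-3p had the largest change, -0.63 (SE 0.33, adjusted p = 0.509), followed by miR-182-3p at -0.32 (SE 0.30, adjusted p = 0.819) and miR-96-3p at 0.08 (SE 0.50, adjusted p = 0.993).

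miR-183-3p was lower with Dox on all 4 days, the only member with 1 direction throughout, where 13.6% of all miRNAs had 1 direction on all 4 days. Its ratio was 0.33 (95% counting interval 0.158 to 0.64) at day 0 and between 0.775 and 0.806 on the later days, when each interval included 1. Its share of the Mir183 reads was likewise lower with Dox on 4 of 4 days (mean difference of -0.125 percentage points, SD 0.0923, exact permutation p = 0.125, the smallest possible). The Mir182 3p share was lower on 4 of 4 days as well (mean difference of -0.16 percentage points, SD 0.174, exact permutation p = 0.125). The 2 treatments were close at day 0 (0.128% without Dox, 0.115% with Dox) and at day 4 (0.203% and 0.197%). The Mir96 3p share was higher with Dox on 2 days and lower on 2 (mean difference of 0.0786 percentage points, SD 0.352, exact permutation p = 0.875). In the limma fit of 3p to 5p ratios 0 of the 146 hairpins were called for Dox (0%), with 11 at an unadjusted p under 0.05. The change was -0.70 (SE 0.29, adjusted p = 0.642) for miR-183, -0.44 (SE 0.25, adjusted p = 0.772) for miR-182 and 0.09 (SE 0.37, adjusted p = 0.972) for miR-96.

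Within single days the counting intervals of the 5p ratios excluded 1, except that of miR-183-5p at day 0 (0.998, 0.971 to 1.03), and the directions differed from day to day. miR-182-5p had a Dox ratio of 0.852 (0.833 to 0.872) at day 0, 1.098 and 1.101 on days 1 and 2, and 1.35 (1.32 to 1.38) at day 4. miR-96-5p had 1.12 (1.05 to 1.20) at day 0, 0.818 and 0.803 at days 1 and 2, and 1.33 (1.24 to 1.42) at day 4. miR-183-5p stayed between 0.974 and 1.13. All 3 5p arms were thus higher with Dox at day 4, where 1 library stands on each side and no test exists. The same 2 libraries also differed in the summed miR-302 cluster, at 35789 RPM without Dox and 2369 RPM with Dox. Any link between these differences was not tested. These intervals hold only counting error and not the spread between cultures.

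**Figure D3:**
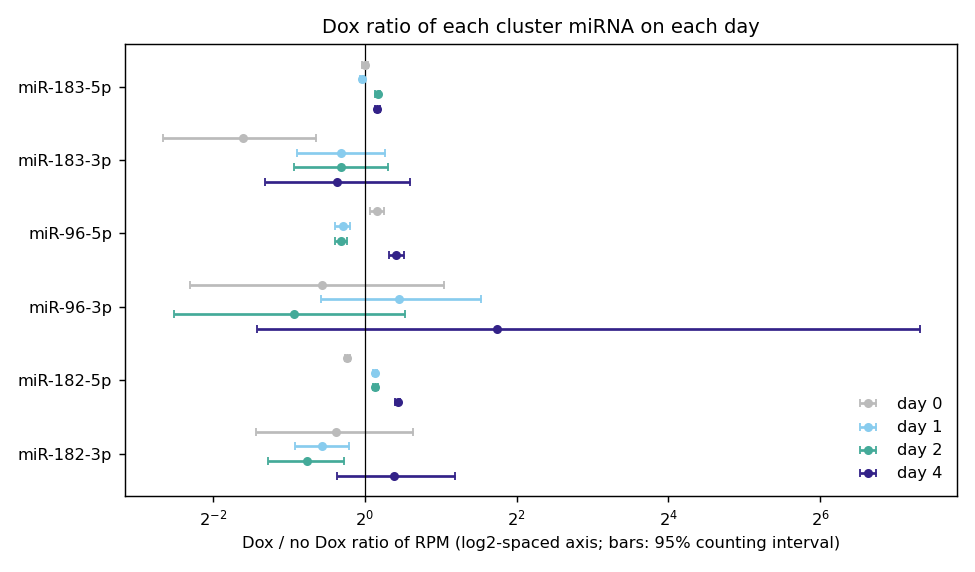
Dox to no-Dox ratio of RPM (horizontal axis, log2-spaced) for each cluster miRNA on days 0, 1, 2 and 4, with 95% counting intervals; the line marks a ratio of 1. The 5p arms have narrow intervals on both sides of 1, and the 3p arms, with 1 to 151 reads in a library, have wide ones.

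A trend of the Dox log2 ratio over days was fitted as a slope. By limma 0 of 6 members were called, against 0.954% of all miRNAs. miR-182-5p had the lowest p of the 6, with a slope of 0.15 per day (SE 0.07), at an unadjusted p of 0.0393 and an adjusted p of 0.407. The slope of miR-183-5p was 0.05 (SE 0.08) and that of miR-96-5p 0.09 (SE 0.10). For the arm ratios 0 of 146 hairpins were called by limma (0%), with 8 at an unadjusted p under 0.05.

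The members did not keep fixed proportions. miR-182 made up 57.8%, 51.1%, 48.5% and 50.8% of the cluster's RPM at days 0, 1, 2 and 4 without Dox, and 53.5%, 54.4%, 49.4% and 54.9% with Dox. miR-183 made up 36.0% to 44.4%. miR-96 held 6.21%, 4.52%, 10.4% and 5.67% without Dox and 7.54%, 3.61%, 7.70% and 6.03% with Dox, lowest at day 1 and highest at day 2 in both series. miR-183-5p stood at 9.88 and 11.8 times miR-96-5p at day 1 and at 3.97 and 5.57 times at day 2, although their hairpins are the closest neighbours in the transcript. With Dox and without, the mean shares of the 3 hairpins were 40.7% and 41.3% for miR-183, 6.22% and 6.69% for miR-96 and 53.0% and 52.0% for miR-182 (exact permutation p = 0.875, 0.75 and 0.75, unadjusted over these 3 tests).

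**Figure D4:**
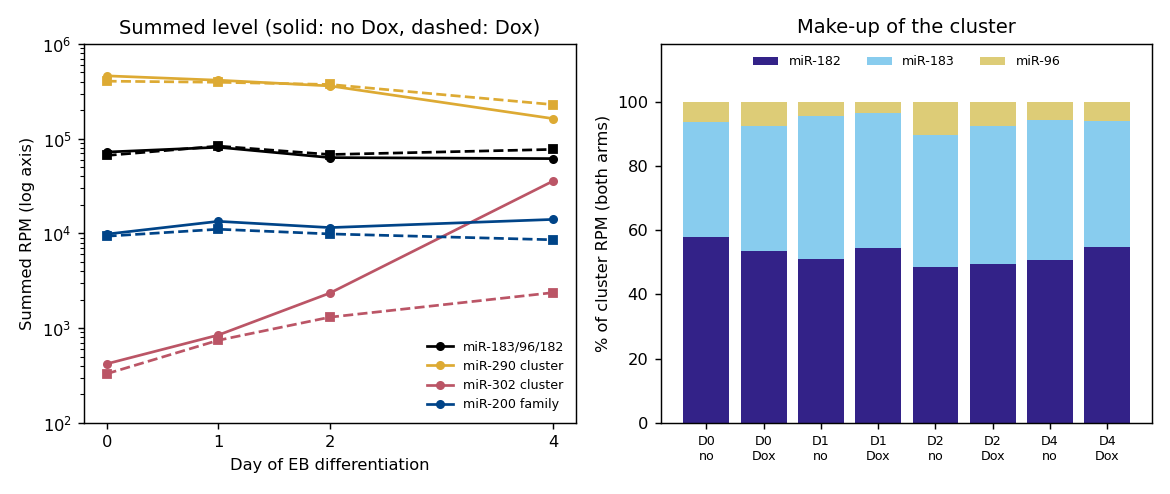
Left, summed RPM (log axis) of the miR-183, miR-290 and miR-302 clusters and the miR-200 family by day, solid for no Dox and dashed for Dox; the miR-183 cluster stays between 61597 and 83500 RPM. Right, percent of the cluster's RPM from each hairpin in each library, where miR-96 ranges from 3.61% to 10.4%.

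Over the 8 libraries the log2 levels of miR-182-5p and miR-183-5p were related with Pearson's r = 0.64 (Spearman's rho 0.62), while miR-96-5p was related to them with r = -0.55 (rho -0.55) and r = -0.65 (rho -0.62). The 2 arms of miR-182 had r = 0.18 (rho 0.12). These are descriptions over 8 libraries that share day, treatment and a common total. Outside the cluster, the profiles most like that of miR-182-5p among those averaging 10 RPM or more were miR-30e-3p (r = 0.84), miR-30e-5p (0.82), miR-30a-5p (0.82), miR-27a-5p (0.80) and miR-30a-3p (0.80). Of these, miR-30a-5p was also among the 5 nearest by Spearman's rho, at 0.88. miR-30e-3p, at 0.86, was level with the last of those 5, miR-30d-5p. The others were not among them.

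Other stem cell and epithelial miRNA groups are given for comparison, beside 25.7% of all 839 miRNAs called at day 4, of which 85.2% were higher. At day 4, 11 of 14 tested miR-290 cluster members were lower than at day 0 and none higher (median log2 change -1.07), for example miR-292a-3p by -1.47. In the miR-302 cluster 5 of 9 were higher and none lower (median 4.68), with both treatments pooled. Its summed level at day 4 was 35789 RPM without Dox and 2369 RPM with Dox. In the slope fit of the Dox log2 ratio over days 5 of 9 were called lower, against 0.954% of all miRNAs called in either direction. In the epithelial miR-200 family 2 of 9 were higher with both treatments pooled (median 0.83), a share close to that over all miRNAs. The summed family went from 9817 RPM at day 0 to 14046 at day 4 without Dox, and from 9337 to 8560 with Dox. In day order miR-429-3p had 461, 1961, 2197 and 1043 RPM in untreated cells and 391, 1333, 1634 and 624 in Dox-treated cells. It rose by 1.93 at day 1 (SE 0.29, limma adjusted p = 4.41e-08). The median over the 6 cluster miRNAs was -0.16 and over all miRNAs 0.56. Differences between these lists were not tested.

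Other miRNAs of sensory organs were read beside the cluster. Of 11 tested miRNAs of retina and inner ear, 4 were higher and 2 lower at day 4, where 25.7% of all miRNAs were called, and none was called for Dox. miR-181a-5p went from 10 RPM (no Dox) and 11 RPM (Dox) at day 0 to 157 and 209 at day 4, and rose by 3.99 (SE 0.63, limma adjusted p = 7.17e-09). The retinal miR-204-5p and miR-211-5p were at no more than 6 RPM in any library. The sensory list as a whole was not scarce. Its sum ran from 59683 to 76183 RPM without Dox and from 51932 to 69588 with Dox. That was 5.19% to 7.62% of a library, most of it from members not named here. Of 10 tested neural miRNAs 2 were higher and 1 lower at day 4, close to that 25.7%. The lower 1 was the neuronal miR-124-3p, which is also on the sensory list. It fell by 2.33 (SE 0.45, limma adjusted p = 2.66e-06), with 52 and 20 RPM left at day 4 of 179 and 156 at day 0. miR-128-3p rose by 1.03 (SE 0.33, limma adjusted p = 0.0102). miR-9-5p went from 3452 RPM at day 0 to 7302 at day 4 without Dox, and from 2889 to 5211 with Dox. The summed neural list, most of it miR-9-5p, went from 3942 to 8030 RPM without Dox and from 3447 to 5785 with Dox.

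Neighbouring miRNA genes on chromosome 6 were read as well. Within 1500000 bases, 4 listed miRNAs of other hairpins had a mean above 10 RPM. miR-29a-3p (mature sequence at 31062673 to 31062694, minus strand) held 359 and 312 RPM at day 0 and 1291 and 1101 at day 4, and rose by 1.83 (limma adjusted p = 1.82e-07). miR-29b-3p rose by 2.35 (adjusted p = 0.00120), although it can also come from a second locus. miR-129-5p was at 0.97 (adjusted p = 0.0698) and miR-335-3p at -0.58 (adjusted p = 0.617). For Dox, miR-129-5p was at -0.83 (adjusted p = 0.129), its 4 Dox-treated libraries holding 68, 79, 102 and 188 RPM and the untreated ones 150, 173, 192 and 210. None of the 4 was called for Dox.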

How the data were processed

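The deposited table holds 1 score per miRNA and library: whole numbers with library sums of 999965 to 1000047, read here as RPM that the authors rounded. A row without values was left out. The submitters' processing notes name Bowtie and mm10; how reads were counted, with which annotation, and what was done with multiply matching ones is not stated by them or by the labels. Whole reads were implied by the smallest total for which each value is a rounded whole number of reads (within 0.5 RPM). This matched 100% of values, and 1 to 207 totals fitted a library. The same rule gave back the reads of 8 of 8 libraries simulated at these smallest totals. That check cannot show that the smallest fitting total is the true one, and the counting intervals rest on it. Counts had been foreseen as one possibility, and the tests for normalized values were needed.

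Levels were tested as log2(RPM + 1) with limma 3.58.1 in R 4.3.3 (trend, robust prior) for the 839 miRNAs with at least 1 RPM in at least 2 libraries, with treatment and day as a factor, Benjamini-Hochberg adjustment and a threshold of 0.05. The 3 residual degrees of freedom hold the variation of the Dox log2 ratio between days, not the spread between replicate cultures. For 800 miRNAs the prior spread was estimated as infinitely firm, so their error was that of miRNAs of like level. Fold changes on this scale understate those of low miRNAs. On simulated libraries of the Dox comparison, with 200 miRNAs changed, 86% were called at 4-fold (4 false calls, 827 tested), 63.5% at 2-fold (2 false calls, 831 tested) and 0 when none was changed. Other tests were exact permutations within days in Python 3.11.15. The 95% intervals are exact binomial ones and hold counting error of reads alone, not the spread between cultures. Where reads are PCR copies, which are not separate molecules, these intervals are too narrow.

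Members and lists were chosen with earlier results of these data known. Named miRNAs are all members, up to 3 of each list with the largest change, same-seed and neighbouring miRNAs above 10 RPM in the mean and the 5 most like miR-182-5p. The pseudocount, filter, scaling, variance model and days used were varied. DESeq2 was not run, since the table holds no raw counts.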

Additional observations from a re-analysis of the deposited data

Results flagged for a closer look

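In RPM as deposited, miR-182-5p lay on opposite sides of 1 in the 2 treatments between day 0 and day 4: the ratio of day 4 to day 0 was 0.749 (95% counting interval 0.731 to 0.767) without Dox and 1.19 (1.16 to 1.22) with Dox. The direction with Dox turned with the scaling: the 2 ratios were 0.482 and 0.918 when the miR-290 cluster was left out of the totals, and 0.481 and 0.796 with median-of-ratios scaling, so that both lay below 1, the Dox ratio above the other each time. These rescaled ratios were computed after the data had been seen. With 1 library on each side, this difference was not tested in that form. The slope of its Dox log2 ratio over all 4 days was 0.15 per day (SE 0.07, limma adjusted p = 0.407).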

How the results depend on the processing

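Treatments were paired by day in the fits and in the permutation tests; the libraries carry no replicate number beyond that. The Dox count of 16 miRNAs became 0 with no filter on low values (67 at an unadjusted p under 0.05), 0 without limma's robust option (71) and 0 with no day term (25), 1 with day as a linear term, and 7, 10, 1 and 9 without the day 0, 1, 2 or 4 pair. The slope count of 8 became 0 with no filter (88 unadjusted), without the robust option (81), without the day 2 pair (62), without the day 4 pair (49) and with days 2 and 4 set against days 0 and 1 (38). No cluster miRNA was among these calls in any alternative.

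The day 1 count of 68 was 1 with no filter, 13 without the robust option, 44 with no treatment term, 33 without the day 2 pair and 109 without the day 4 pair. The day 2 count was 1, 72 and 93 under the first 3 of these, and the day 4 count of 216 was 30 with no filter. Of the 6 cluster miRNAs, 0 were called on days 1 and 2 with no filter, where miR-182-3p had limma adjusted p = 0.118 and 0.138. There were 2 on each day with median-of-ratios scaling, where 69 and 101 of all 839 miRNAs were called. There were 2 on day 1 without the day 4 pair. On day 4 there was 1 among miRNAs with a mean of at least 10, where 205 of 499 were called. There were 3 on day 4 under each other scaling, where 156 and 164 of 839 were called. Hairpins called for the arm ratio were 4 on day 1 and 8 on day 2 with a pseudocount of 5, 0 on day 1 without the day 4 pair (27 unadjusted), and 3 and 2 on day 2 without the day 1 or day 4 pair. The cause of these moves was not tested.

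Signs changed only for values that missed the threshold. For Dox these were miR-96-5p without the day 1 pair (0.086) and the day 2 pair (0.095), and miR-96-3p with limma-voom on implied reads (-0.031), without the day 1 pair (-0.031) and the day 4 pair (-0.33). The slope of miR-183-3p was -0.0089 without the day 0 pair, and without the day 4 pair those of miR-96-5p, miR-96-3p and miR-182-3p were -0.24, -0.15 and -0.20. With median-of-ratios scaling miR-182-5p was at -0.21 on day 1, and on day 2 miR-183-5p, miR-96-5p and miR-96-3p were at -0.41, -0.18 and -0.40. With totals that leave out the miR-290 cluster, miR-183-5p and miR-96-3p were at -0.078 and -0.092 on day 2. On day 4 miR-183-5p was at -0.48 and -0.37 with these 2 scalings. For the arm ratio, miR-96 was at -0.12 and -0.18 for Dox without the day 1 or day 4 pair, and the slopes of miR-183 without the day 0 pair and miR-182 without the day 4 pair were -0.068 and -0.39. Depth limits miR-96-3p most, with 1 to 22 reads. DESeq2 could not be run on rounded RPM.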
